A study of Homo sapiens with 18 samples.

Results

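The genes described here are 9 cyclin-dependent kinase (CDK) inhibitors and p53 target genes: CDKN1A, CDKN1B, CDKN2C, MDM2, GDF15, GADD45A, SESN1, BTG2 and TNFRSF10B. They were listed by symbol and found through the array platform's annotation, and for each gene the probe set with the highest mean over 18 arrays was used, a probe set being a group of short probes for one transcript. Of the 9 genes, 7 had a probe set that named the gene alone, and those 7 passed the filter on low signals and were among 7616 genes tested. Expression of CDKN2C and BTG2 was not analysed here.

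RNA came from U251, an established human glioblastoma line. There were 3 arms: no transfection (Control), transfection with a negative siRNA (siNeg), and transfection with siRNA against MPS1, a mitotic kinase (siMPS1). Each was taken at 6, 24 and 48 h, with 2 arrays per group and 9 groups, and both transfected arms received 2 pmol of siRNA. The labels name 1 siRNA treatment against MPS1 and do not say whether paired arrays are separate cultures, so p-values measure the spread between these samples, which may be technical, and the number of arrays limits the precision. In bulk RNA such as this, fewer cells of a type and less RNA per cell cannot be told apart.

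As background, p53 is a transcription factor that is stabilised by DNA damage and other stress and switches on genes of cell-cycle arrest, repair and death. CDKN1A (p21) blocks the CDKs that drive entry into S phase, and its relative CDKN1B (p27) does the same mainly under control of growth signals. MDM2 is the ubiquitin ligase that degrades p53 and is itself a p53 target. GADD45A, SESN1 and BTG2 restrain growth, the secreted factor GDF15 is a general stress signal, and TNFRSF10B is a death receptor for the ligand TRAIL. Many of these genes also have activators other than p53, among them ATF4 and DDIT3 of the integrated stress response. The activity of p53 was not measured here.

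Knockdown was visible in the data. TTK, the gene of MPS1, differed between siMPS1 and siNeg by a log2 change of -1.43 at 6 h, -1.88 at 24 h and -2.30 at 48 h. With 3 added to each signal, that left 37.1%, 27.1% and 20.3% of the siNeg value. The mean linear signals, with nothing added, were 15.0, 29.2 and 20.3 in siMPS1 and 45.5, 114 and 110 in siNeg. The mesenchymal and stem-like glioma markers VIM (mean log2 signal 11.9), CD44 (11.5), NES (9.01), SOX9 (7.64) and SOX2 (6.47) were bright, whereas CHI3L1 (1.87), another mesenchymal marker, and the astrocyte markers GFAP (3.27) and S100B (-0.25) were dim. All 9 listed markers of blood, endothelium and epithelium had means of at most 2.80, while of 3 neuronal genes SYT1 (6.39) and GAD1 (5.63) gave signal and SNAP25 (3.65) was dim. Replicate arrays correlated from 0.933 to 0.948 over all probe sets.

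At 48 h, CDKN1A, GDF15, GADD45A and TNFRSF10B were called higher in siMPS1 than in siNeg cells on their brightest probe sets. Those were 4 of the 7 tested genes, all higher, against 30.0% of all genes called in either direction and 16.2% called higher (limma, adjusted p under 0.05). The GADD45A call was kept in 7 of 10 alternative settings. With the mean of its probe sets TNFRSF10B was at 0.01 (adjusted p = 0.941). The median log2 change of the 7 was 0.28, compared with 0.02 for all genes. Against Control at 48 h, 3 of the 7 were higher, CDKN1A, GDF15 and TNFRSF10B, where 28.3% of all genes were called and 15.7% were called higher. The median was 0.35, the value of TNFRSF10B, against 0.05 for all genes. With the mean of its probe sets TNFRSF10B was at -0.15 against Control (adjusted p = 0.257). Between siNeg and Control at 48 h, GDF15 and GADD45A were lower in siNeg, 2 of 7, where 13.3% of all genes were called and 6.32% were called lower. The comparison with siNeg and the comparison of siNeg with Control share the siNeg arrays. Fold changes are on the log2(signal + 3) scale, which understates changes of dim genes.

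Measures of RNA quality moved with the siMPS1 48 h group. The log2 difference between the 3' and 5' probe sets of ACTB was 0.90 (SD 0.04, n = 2) there, compared with 0.12 (SD 0.03) in siNeg and 0.20 (SD 0.06) in Control at 48 h, and between 0.17 and 0.43 in the groups at 6 and 24 h. For GAPDH it was 0.29 (SD 0.01), compared with 0.05 (SD 0.05) and -0.03 in siNeg and Control. The mean log2 signal of the 18S rRNA control probe sets was 11.1 in siMPS1, 9.47 in siNeg and 10.2 in Control at 48 h. It was as high in siNeg at 24 h (11.1), between 10.1 and 10.4 in the other groups at 6 and 24 h, and fell in siNeg over the step to 48 h. The part of these measures in the differences at 48 h and from 24 to 48 h, of members and of gene lists alike, was not tested.

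**Figure D1:**
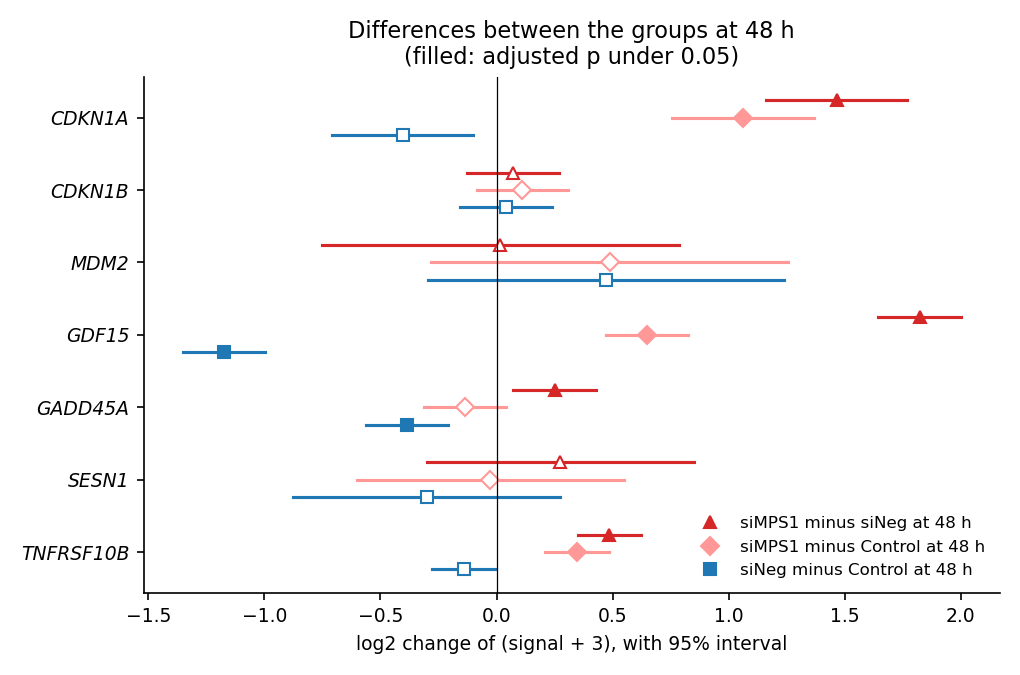
Log2 changes of (signal + 3) at 48 h for the 7 tested genes (points, with 95% intervals from limma), for siMPS1 minus siNeg (triangles), siMPS1 minus Control (diamonds) and siNeg minus Control (squares). Filled symbols passed an adjusted p under 0.05. CDKN1A (1.47) and GDF15 (1.82) lay farthest to the right for siMPS1 minus siNeg, and GDF15 (-1.17) farthest to the left for siNeg minus Control.

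CDKN1A, the inhibitor p21, fell between 24 and 48 h in both control arms and did not pass the test for a fall in siMPS1 cells. The deposited log2 signal at 48 h was 6.19 and 6.15 in Control, 6.05 and 5.44 in siNeg, and 7.16 and 7.36 in siMPS1. Both siMPS1 arrays lay above all 4 others. At 6 h the values had been 7.27 and 7.21 in Control, 7.13 and 7.28 in siNeg, and 7.56 and 7.44 in siMPS1. At 24 h they were 7.09 and 7.38, 7.13 and 7.12, and 7.40 and 7.23 in the same order, and differences between arms at these times were at most 0.29, none of them called.

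The difference between siMPS1 and siNeg at 48 h was 1.47 (SE 0.145, adjusted p = 6.94e-07, limma), a 2.76-fold higher signal, and against Control it was 1.06 (adjusted p = 3.58e-05), or 2.09-fold. From 24 to 48 h CDKN1A changed by -1.04 in Control (adjusted p = 9.45e-05), by -1.33 in siNeg (adjusted p = 2.36e-06) and by -0.05 in siMPS1 (adjusted p = 0.835). The difference in response between 48 and 24 h was 1.28 (adjusted p = 3.57e-04). The siNeg value at 48 h differed from Control by -0.40 and did not pass (adjusted p = 0.076), but without siNeg replicate 1 at 48 h it did, at -0.69 (adjusted p = 0.00446).

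The 250 bases before the RefSeq start of CDKN1A, and those of GDF15 further down, are shown because these were the members with the largest changes at 48 h. The CDKN1A window lies at chr6:36678464-36678713 on the plus strand of GRCh38.p14, upstream of the gene, and 76.4% of its bases are G or C. Capitals mark the 4 matches to the GC box GGGCGG, the letters bound by SP1 family factors, of which the last pair overlaps.
CDKN1A: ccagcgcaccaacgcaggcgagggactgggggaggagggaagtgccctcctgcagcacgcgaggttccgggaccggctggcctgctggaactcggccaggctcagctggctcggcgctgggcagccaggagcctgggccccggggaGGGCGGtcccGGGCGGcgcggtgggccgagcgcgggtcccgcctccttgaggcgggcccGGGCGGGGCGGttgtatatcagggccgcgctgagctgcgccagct
On either strand, 42.6% of 35116 windows of the same length in the RefSeq table hold a GC box. The same search on both strands covered the TATA box TATAAA, held by 10.7% of windows, and the CCAAT box, held by 32.0%. It also covered the p53 half-site RRRCWWGYYY (R is A or G, W is A or T, Y is C or T), held by 5.57%, and the ATF4 and C/EBP composite TGATGNAA, held by 3.14%. The CDKN1A window matched none of these 4. Only exact matches were counted, so sites that depart from a pattern in any base were not found. Such matches describe letters in this window and nothing beyond it.

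CDKN1B, the inhibitor p27, rose to 24 h and fell by 48 h in all 3 arms. It was at 6.62 and 6.48 in Control, 6.64 and 6.69 in siNeg, and 6.65 and 6.57 in siMPS1 at 6 h. At 24 h it was 7.38 and 7.45 in Control, 7.67 and 7.56 in siNeg, and 7.78 and 7.64 in siMPS1. By 48 h the values were 6.91 and 6.83, 6.85 and 6.98, and 6.91 and 7.06. All 6 arrays at 24 h lay above all 12 others.

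The rise of CDKN1B from 6 to 24 h was 0.84 in Control, 0.92 in siNeg and 1.08 in siMPS1 (adjusted p = 9.39e-07, 2.68e-07 and 3.40e-08, limma), and from 24 to 48 h it fell by 0.53, 0.68 and 0.71. Between siMPS1 and siNeg at 48 h the difference was 0.07 (95% interval -0.13 to 0.27, adjusted p = 0.618). The 1 call between arms was siMPS1 against Control at 24 h, where it was the only one of the 7 genes called, while 13.1% of all genes were and 5.71% were called higher. That difference was 0.30 (SE 0.094, adjusted p = 0.0442), with siNeg in between at 0.20 above Control (adjusted p = 0.328). The call was lost with no filter (adjusted p = 0.0557), with the replicate block (0.0513), in a fit of the 2 groups alone (0.0789) and in 10 of 18 fits that left out 1 array. Those arrays were all 4 of siNeg at 6 and 24 h (adjusted p at most 0.0542), both of Control at 48 h (0.0516 each) and at 24 h (0.207 and 0.113), and both of siMPS1 at 24 h (0.238 and 0.0611).

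None of the other CDK inhibitors tested, 3 of 5 listed, was called higher at 48 h in siMPS1 than in siNeg, where 16.2% of all genes were. CDKN3, a phosphatase that acts on CDK2 and is made in dividing cells, was lower in siMPS1 than in siNeg by a log2 change of -0.66 (SE 0.093, adjusted p = 3.79e-05) and lower than in Control by -0.69. Its log2 signal at 48 h was 8.12 and 8.07 in siMPS1, 8.76 and 8.74 in siNeg, and 8.85 and 8.71 in Control, with both siMPS1 arrays below the other 4. CDKN2D, an INK4 inhibitor of CDK4 and CDK6, was at -0.65 (adjusted p = 0.0609), and CDKN1C, the third member of the p21 family, at -0.23 (adjusted p = 0.669). CDKN2A and CDKN2B, the INK4 genes that many gliomas lack, fell under the filter, with means of at most 3.06 over 3 probe sets and of -0.28 in 1 probe set.

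MDM2 was dim, and no difference between arms passed the test. Its brightest probe set had a mean log2 signal of 3.74, with the filter at 3.52. At 48 h it read 2.66 and 3.54 in Control, 3.20 and 4.22 in siNeg, and 3.69 and 3.80 in siMPS1. The siNeg arrays overlapped both other groups, and siMPS1 differed from siNeg by 0.02 with a 95% interval from -0.75 to 0.78 (adjusted p = 0.979), which leaves room for changes in either direction. At 6 h the values were 4.62 and 4.31 in Control, 3.75 and 3.05 in siNeg, and 4.21 and 4.12 in siMPS1, and at 24 h they ran from 3.16 to 4.31 over the 6 arrays. Over time, Control fell by 1.10 between 6 and 48 h (adjusted p = 0.0185), a call lost without Control replicate 1 at 6 h (adjusted p = 0.109) or at 48 h (0.174). The other 4 MDM2 probe sets had means from 0.76 to 3.48, and their changes between siMPS1 and siNeg at 48 h ran from -0.14 to 0.60, none of them called.

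Of 17 listed regulators of p53, 12 were tested, and at 48 h 2 were higher and 1 lower in siMPS1 than in siNeg, with a median of 0.10 against 0.02 for all genes, of which 16.2% were called higher and 13.8% lower. Against Control 4 were higher and 0 lower, where 28.3% of all genes were called and 15.7% were called higher. The count of 4 fell without Control replicate 2 or siMPS1 replicate 2 at 48 h. HIPK2, a kinase that phosphorylates p53, stood farthest above siNeg, by 1.21 (SE 0.124, adjusted p = 1.15e-06). Its log2 signal was 6.44 and 6.52 in siMPS1, 5.27 and 5.15 in siNeg, and 6.17 and 5.93 in Control, so siNeg was low and siMPS1 high. USP7, a deubiquitinase of MDM2 and p53, was 0.43 above siNeg and 0.46 above Control, and the call against siNeg was lost where probe sets were averaged. TRIM28, a corepressor that works with MDM2, was lower than siNeg by -0.38 and higher than Control by 0.55, with siNeg 0.93 above Control. RCHY1, another ligase for p53, was at -0.23 (adjusted p = 0.0582).

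GADD45A, a small protein that binds CDK1 and PCNA, differed little between arms. It was at 10.60 and 10.66 in Control, 10.63 and 10.55 in siNeg, and 10.71 and 10.52 in siMPS1 at 6 h. At 24 h the values were 10.33 and 10.35, 10.35 and 10.45, and 10.33 and 10.04. By 48 h they were 10.26 and 10.26 in Control, 9.84 and 9.92 in siNeg, and 10.05 and 10.21 in siMPS1. Both siNeg arrays were the lowest of that time, and the siMPS1 arrays stood between them and Control.

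Against siNeg at 48 h GADD45A was higher in siMPS1 by 0.25 (SE 0.084, adjusted p = 0.0316, limma), a 1.19-fold signal, and against Control it was at -0.13 (adjusted p = 0.257). Relative to Control, siNeg was lower by -0.38 (adjusted p = 0.00538). The call against siNeg was lost with median centring (adjusted p = 0.0809), no filter (0.0606) or no intensity trend (0.0878), and without siNeg replicate 1 (0.162) or 2 (0.0532) or siMPS1 replicate 2 (0.246) at 48 h. That of siNeg against Control was lost without siNeg replicate 1 at 48 h (adjusted p = 0.0598).

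SESN1, which restrains mTORC1 signalling after stress, passed no test between arms or over time. Its log2 signals ran from 3.85 to 5.21 over the 18 arrays. At 48 h they were 4.34 and 4.60 in Control, 3.85 and 4.39 in siNeg, and 4.04 and 4.83 in siMPS1, so that the groups overlapped. The difference between siMPS1 and siNeg was 0.28 with a 95% interval from -0.30 to 0.85 (adjusted p = 0.493). The largest difference between arms was siMPS1 against Control at 24 h, at 0.58 (unadjusted p = 0.049, adjusted p = 0.186, limma), where the arrays were 5.21 and 4.78 against 4.04 and 4.65.

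Of 17 listed relatives of the members in the GADD45, BTG and TOB, sestrin, TRAIL receptor and TGF-beta families, 6 were tested. At 48 h, 1 was higher and 1 lower in siMPS1 than in siNeg, where 16.2% of all genes were called higher and 13.8% lower. GADD45B, the stress-induced relative of GADD45A, was 0.32 higher in siMPS1 than in siNeg (adjusted p = 0.0172). That call was lost without siNeg replicate 1 or siMPS1 replicate 2 at 48 h, with averaged probe sets or in a fit of the 2 groups alone. BTG3, an antiproliferative relative of BTG2, was 0.34 lower in siMPS1 than in siNeg (adjusted p = 4.43e-04). TOB2 (0.20) and BTG1 (-0.05), further members of that family, did not pass the test against siNeg on their brightest probe sets. With averaged probe sets TOB2 did pass, at 0.96 (adjusted p = 3.69e-04). At 24 h BTG3 and GADD45B had been called the other way against siNeg, BTG3 at 0.21 (adjusted p = 0.0359) and GADD45B at -0.43 (adjusted p = 0.00685). Against Control at 48 h GADD45B was at 0.11 (adjusted p = 0.413), BTG3 was lower by -0.32 and TOB2 was higher by 0.52 (adjusted p = 0.0127). The BTG3 call was lost with averaged probe sets (-0.23, adjusted p = 0.07). That of TOB2 was lost without Control replicate 1 (0.43) or siMPS1 replicate 2 (0.51) at 48 h.

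GDF15 separated the 3 arms at 48 h. This secreted member of the TGF-beta superfamily gave log2 signals of 8.71 and 8.64 in siMPS1, 8.06 and 7.99 in Control, and 6.94 and 6.72 in siNeg. No arrays of different arms overlapped at 48 h. At 6 h all 6 arrays had been between 6.76 and 6.94, at 6.90 and 6.94 in Control, 6.76 and 6.88 in siNeg, and 6.87 and 6.84 in siMPS1. At 24 h all 6 arrays lay between 7.96 and 8.17, so the separation appeared after that time.

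Between siMPS1 and siNeg at 48 h GDF15 changed by 1.82 (SE 0.084, adjusted p = 1.59e-10), a 3.54-fold higher signal, which ranked 2 by p among the 7616 genes. Against Control it was 0.65 higher (adjusted p = 2.26e-05), or 1.57-fold, and siNeg was lower than Control by -1.17 (adjusted p = 9.53e-08), ranked 5 by p. From 6 to 24 h GDF15 rose by 1.08 in Control, 1.28 in siNeg and 1.15 in siMPS1. From 24 to 48 h it changed by 0.00 in Control (adjusted p = 0.982), fell by 1.27 in siNeg (adjusted p = 7.26e-09) and rose by 0.64 in siMPS1 (adjusted p = 3.83e-05). The bright probe set has the suffix that marks probes able to bind other transcripts as well. The other probe set of the gene had a mean log2 signal of -0.60 and a change of -0.05 at 48 h.

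The GDF15 window lies at chr19:18385908-18386157 on the plus strand of GRCh38.p14, upstream of the gene, with 58.4% G or C. Capitals mark 2 GC boxes, 1 CCAAT box and 1 TATAAA, the first GC box and the CCAAT box on the minus strand (CCGCCC and ATTGG).
GDF15: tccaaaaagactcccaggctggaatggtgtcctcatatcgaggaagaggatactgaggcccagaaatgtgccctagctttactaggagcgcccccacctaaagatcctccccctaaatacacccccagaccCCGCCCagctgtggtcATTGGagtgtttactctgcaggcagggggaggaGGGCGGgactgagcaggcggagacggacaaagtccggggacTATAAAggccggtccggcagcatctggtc
Among the members with an entry, 7 of 9 with 14 windows in all (CDKN2C and BTG2 included, GADD45A and TNFRSF10B not), GDF15 was the one with TATAAA. The p53 half-site had 1 exact match, in 1 of the 3 SESN1 windows. Inexact p53 sites were not searched for, so windows without a match may still hold them.

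TNFRSF10B, the TRAIL receptor DR5, was higher in siMPS1 at 48 h on its brightest probe set. The log2 signal at 48 h was 8.94 and 8.92 in Control, 8.82 and 8.76 in siNeg, and 9.34 and 9.21 in siMPS1, with both siMPS1 arrays above the other 4. At 6 h it had been 9.49 and 9.59, 9.66 and 9.60, and 9.53 and 9.43, and at 24 h all 6 arrays lay between 9.36 and 9.49. From 24 to 48 h it fell by 0.46 in Control and 0.64 in siNeg (adjusted p = 1.10e-04 and 1.02e-06), and in siMPS1 the change was -0.15 (adjusted p = 0.0976).

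At 48 h TNFRSF10B was higher in siMPS1 than in siNeg by 0.49 (SE 0.065, adjusted p = 1.98e-05), a 1.40-fold signal, and higher than in Control by 0.35 (adjusted p = 7.29e-04). The other probe sets of the gene, with mean log2 signals of 5.26 and 5.21, did not show this. They differed between siMPS1 and siNeg at 48 h by -0.20 (adjusted p = 0.579) and -0.26 (adjusted p = 0.444) in a fit of all 19064 probe sets that name 1 gene, and both carry the suffix for probes that may bind other transcripts. With the mean of the 3 probe sets the difference was 0.01 (adjusted p = 0.941) against siNeg and -0.15 (adjusted p = 0.257) against Control.

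**Figure D2:**
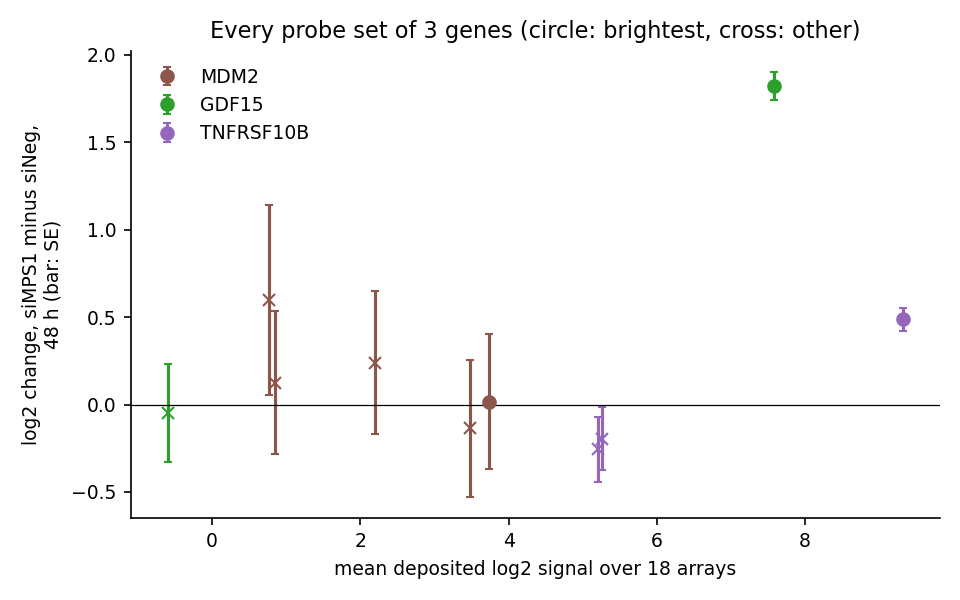
Log2 change between siMPS1 and siNeg at 48 h (vertical axis, bars are SE) against the mean deposited log2 signal (horizontal axis) for every probe set of MDM2, GDF15 and TNFRSF10B. Circles are the brightest probe set of each gene and crosses the others. For GDF15 and TNFRSF10B the circle lies above 0 (1.82 and 0.49), while the crosses lie at or below it (-0.05, -0.20 and -0.26).

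Before 48 h, CDKN1B at 24 h was the one gene called between arms. Between siMPS1 and siNeg, limma called 0 of the 7 at 6 h, where 7.93% of all genes were called, and 0 at 24 h, where 11.3% were. At an unadjusted p under 0.05 there was 1 at each time, TNFRSF10B at -0.15 and GADD45A at -0.21. Without siMPS1 replicate 1 at 24 h the latter passed, at -0.35 (adjusted p = 0.0154), as it did against Control, at -0.29 (adjusted p = 0.0366). Between siMPS1 and Control at 6 h, 0 of 7 were called against 17.3% of all genes, and 0 had an unadjusted p under 0.05. Median centring moved the median of all genes there from 0.04 to -0.16, and then called GDF15 (-0.26) and TNFRSF10B (-0.25). Between siNeg and Control, 0 were called at 6 h (4.18% of all genes) and 0 at 24 h (0.998%), with 1 at an unadjusted p under 0.05 at each time, MDM2 at -0.88 and CDKN1B at 0.20.

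The response to siMPS1 at 48 h differed from that at both earlier times for CDKN1A, GDF15 and, on its brightest probe set, TNFRSF10B. For siMPS1 minus siNeg at 48 h less that at 6 h, 3 of 7 genes were called, all higher, against 21.1% of all genes and 11.4% called higher. They were CDKN1A (1.18, adjusted p = 6.04e-04), GDF15 (1.79, adjusted p = 4.56e-08) and TNFRSF10B (0.64, adjusted p = 1.23e-04). For 48 h less 24 h, 4 of 7 were called, all higher, against 16.4% of all genes and 9.28% called higher, with GADD45A (0.46, adjusted p = 0.0129) as the fourth. That of GADD45A was lost with no intensity trend (adjusted p = 0.0555) and without siNeg replicate 2 at 24 h (0.0586), siMPS1 replicate 2 at 24 h (0.0709) or siMPS1 replicate 2 at 48 h (0.0622). With averaged probe sets TNFRSF10B lost both calls, at -0.052 (adjusted p = 0.818) for 48 h less 6 h and 0.094 (adjusted p = 0.684) for 48 h less 24 h.

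The members also moved with time in untransfected cells. From 6 to 48 h in Control, 6 of 7 were called, against 48.0% of all genes, 27.2% higher and 20.8% lower. GDF15 rose by 1.09 and CDKN1B by 0.31, while CDKN1A fell by 1.04, MDM2 by 1.10, TNFRSF10B by 0.60 and GADD45A by 0.36. The fall of MDM2 was on a probe set near the filter, and its call was lost without Control replicate 1 at 6 h (-0.96) or at 48 h (-0.78). The other, dimmer MDM2 probe sets changed by -0.63 to 0.38, none of them called. The CDKN1B call was lost without Control replicate 2 at 6 h (adjusted p = 0.0942) or Control replicate 1 at 48 h (0.0704).

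The single steps in time were tested after the data were seen. From 6 to 24 h, 3 of 7 genes were called in each arm, CDKN1B and GDF15 higher everywhere and 1 lower in each, against 44.3% of all genes in Control (28.0% higher, 16.3% lower), 45.2% in siNeg (25.9% and 19.3%) and 48.6% in siMPS1 (27.1% and 21.6%). The lower gene was GADD45A in Control (-0.29) and siMPS1 (-0.43) and TNFRSF10B in siNeg (-0.19). GADD45A in Control lost its call without Control replicate 2 at 6 h (adjusted p = 0.068) or replicate 1 at 24 h (0.0506), and TNFRSF10B in siNeg lost it without siNeg replicate 1 at 6 h (0.128) or either siNeg array at 24 h (0.0814 and 0.0784), with median centring (0.168), no intensity trend (0.0505) or averaged probe sets. With median centring, which moved the median of all genes in Control from 0.12 to -0.04, 5 genes were called in Control, MDM2 (-0.96) and TNFRSF10B (-0.31) in addition.

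From 24 to 48 h, CDKN1A, CDKN1B and TNFRSF10B fell in Control, 3 of 7 against 20.3% of all genes and 12.0% lower. In siNeg GDF15 and GADD45A fell as well, the latter by 0.52, for 5 of 7 against 30.1% and 16.1% lower. In siMPS1 CDKN1B fell and GDF15 rose, 2 of 7 against 25.2%, 13.0% higher and 12.2% lower. The fall of TNFRSF10B in Control was lost with averaged probe sets (-0.18, adjusted p = 0.172). The lines for CDKN1A, GDF15 and TNFRSF10B in the plot of every array part at this last step.

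**Figure D3:**
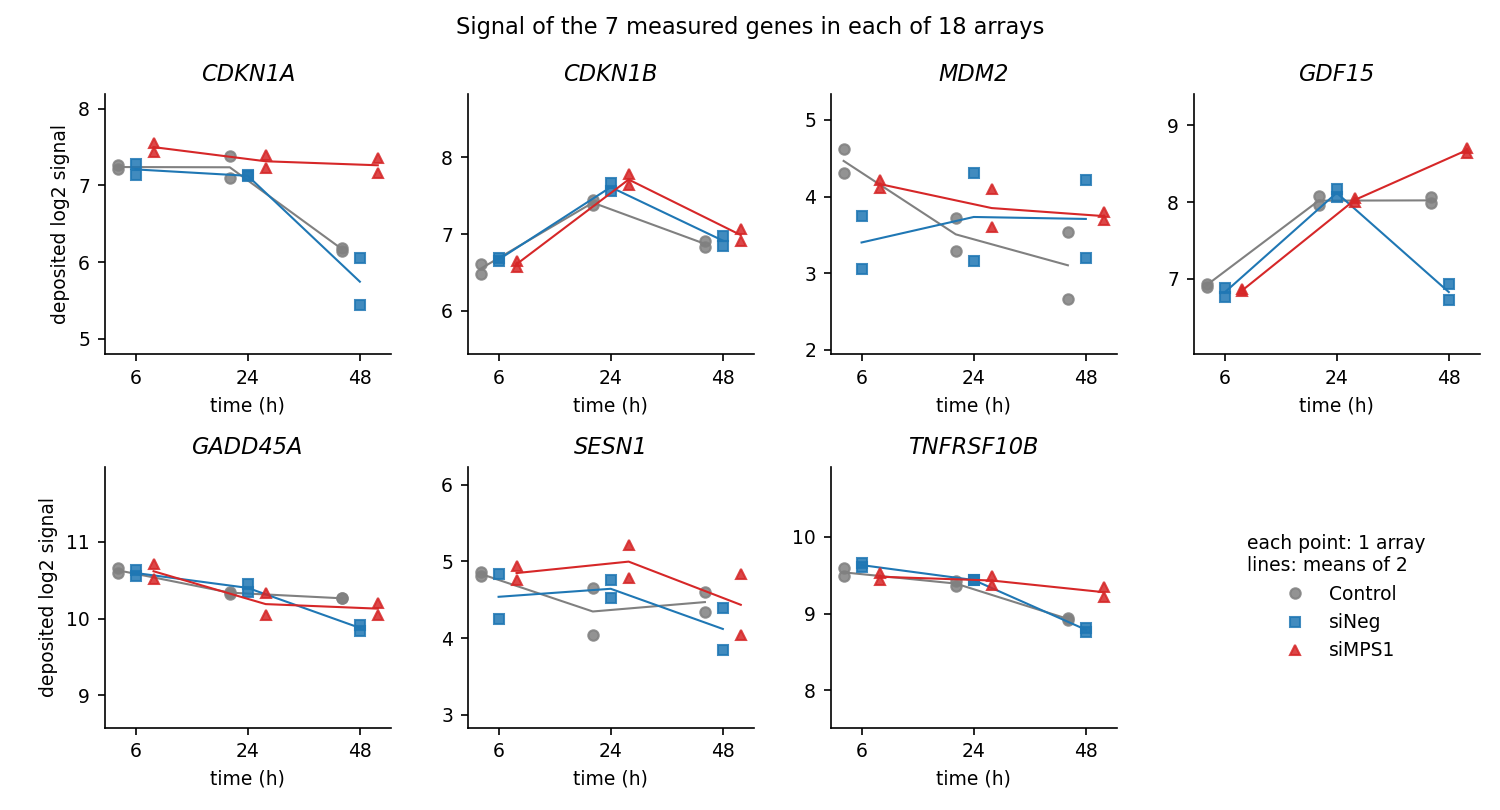
Deposited log2 signal (vertical axes, each spanning the same range) of the brightest probe set of each of the 7 genes at 6, 24 and 48 h (horizontal axes, times set at even steps) in Control (circles), siNeg (squares) and siMPS1 (triangles). Each point is 1 array and lines join the means of 2. In siMPS1 at 48 h CDKN1A (7.16 and 7.36) and GDF15 (8.71 and 8.64) lie above all other arrays of that time, and CDKN1B peaks at 24 h in every arm.

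Other p53 targets moved in both directions. Of 45 listed, 29 were tested, and at 48 h 6 were higher and 4 lower in siMPS1 than in siNeg, with a median of 0.04 against 0.02 for all genes, of which 16.2% were called higher and 13.8% lower. Against Control 5 were higher and 5 lower, where 28.3% of all genes were called and 15.7% were called higher. Between siNeg and Control 1 was higher and 1 lower, where 13.3% of all genes were called and 6.32% were called lower. SFN (14-3-3 sigma, which holds CDK1 in the cytoplasm) was 1.01 higher in siMPS1 than in siNeg at 48 h (SE 0.063, adjusted p = 3.67e-09). Its log2 signals then were 9.23 and 9.21 in siMPS1, 8.25 and 8.15 in siNeg, and 8.80 and 8.75 in Control. At 48 h it was, like GDF15, lowest in siNeg and highest in siMPS1. SFN was already called higher in siMPS1 than in siNeg at 6 h, by 0.34 (adjusted p = 0.00577). At 24 h its difference was 0.25 (adjusted p = 0.0175), and GDF15 was called at neither time.

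Among the other p53 targets named, SUSD6 was 0.78 and TRIAP1, an inhibitor of apoptosis, 0.40 higher in siMPS1 than in siNeg at 48 h. Both were also higher than Control (0.79 and 0.35). The TRIAP1 call against Control was lost without Control replicate 2 at 48 h (0.27). PMAIP1, which encodes the death-promoting protein NOXA, was 0.53 lower than in siNeg (adjusted p = 7.38e-06) and lower than Control by -0.69. Outside the rule that chose the named genes, and named after their values were seen, the DNA repair gene DDB2 (-0.68), the death receptor FAS (-0.69) and ZMAT3 (-0.53) completed the 4 that were lower, and XPC (0.51), STEAP3 (0.40) and TGFA (0.35) the 6 that were higher. Without siNeg replicate 1 at 48 h, 3 of the list were called higher than siNeg, and without siNeg replicate 2 or siMPS1 replicate 2 at 48 h, 1 was called lower. Against Control the 5 lower became 2 or 3 without Control replicate 1 or 2, and 3 or 1 without siMPS1 replicate 1 or 2, at 48 h.

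More cyclins, CDKs and partners were called lower than higher at 48 h. Of 15 listed, 14 were tested, 2 higher and 6 lower in siMPS1 than in siNeg, with a median of -0.19 against 0.02 for all genes, of which 16.2% were called higher and 13.8% lower. CCNE2, a cyclin of S-phase entry, was 1.28 lower in siMPS1 than in siNeg (SE 0.136, adjusted p = 1.64e-06). The log2 signals were 5.84 and 5.64 in siMPS1, 7.00 and 7.14 in siNeg, and 7.26 and 7.01 in Control. The CCNE2 difference from siNeg was already -0.97 at 6 h and -0.75 at 24 h. CDK1, the mitotic kinase, was higher than in siNeg at 24 h, by 0.49 (adjusted p = 0.0012), and lower at 48 h, by -0.56. At 48 h PCNA, the clamp of replicating DNA, was 0.51 lower in siMPS1 than in siNeg, and CKS1B, a CDK subunit, 0.39 lower. Against Control 4 were higher and 5 lower, where 28.3% of all genes were called and 15.7% were called higher. The higher counts were not stable: leaving out any 1 siNeg or siMPS1 array at 48 h left 1 higher than siNeg, and leaving out either Control array at 48 h left 1 higher than Control, or 2 with either siMPS1 array left out.

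Many genes of ATF4 and the endoplasmic reticulum stress response were, like GDF15, higher in siMPS1 than in siNeg at 48 h. All 19 listed were tested, and at 48 h 13 were higher and 3 lower in siMPS1 than in siNeg, with a median of 0.42. Of all genes 16.2% were called higher and 13.8% lower, with a median of 0.02. Between siNeg and Control 11 were lower and 0 higher in siNeg, with a median of -0.45. In that comparison 13.3% of all genes were called and 6.32% were called lower. Against Control siMPS1 had 3 higher and 5 lower, where 28.3% of all genes were called and 15.7% were called higher. Without siMPS1 replicate 1 at 48 h 1 was higher than Control, and without Control replicate 2 or siMPS1 replicate 2 at 48 h 3 were lower. DDIT3 (CHOP), a transcription factor of this response, was 1.12 higher than in siNeg (SE 0.085, adjusted p = 4.08e-08) and 0.33 higher than in Control. Its log2 signals at 48 h were 7.99 and 7.90 in siMPS1, 6.91 and 6.71 in siNeg, and 7.71 and 7.51 in Control. The DDIT3 call against Control was lost without Control replicate 2 (0.23) or siMPS1 replicate 1 (0.29) at 48 h.

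HERPUD1, of protein degradation at the endoplasmic reticulum, was 0.83 higher than in siNeg and 0.18 higher than in Control. Its call against Control was lost with median centring (adjusted p = 0.164), no intensity trend (0.0692) or a fit of the compared groups alone (0.092). The same held without either Control or either siMPS1 array at 48 h, at 0.16 to 0.21. DNAJB9, a chaperone of that compartment, was 0.70 higher than in siNeg, and its difference from Control was 0.12 (adjusted p = 0.199). PSAT1, an enzyme of serine synthesis and an ATF4 target, went the other way, at -1.60 against siNeg and -1.50 against Control. At 24 h 7 of the list were lower and 0 higher in siMPS1 than in siNeg, where 11.3% of all genes were called. GDF15 was not called at that time (-0.09, adjusted p = 0.544). From 24 to 48 h in siMPS1, 1 of the list was higher and 10 lower (median -0.29), while GDF15 rose by 0.64. Of all genes 13.0% were called higher and 12.2% lower over that step. In Control 1 was higher and 10 lower (median -0.46), where 20.3% of all genes were called and 12.0% were called lower. In siNeg 1 was higher and 14 lower (median -0.76), where these shares were 30.1% and 16.1%. At 48 h the comparisons of siMPS1 with siNeg and of siNeg with Control rest on the same siNeg arrays.

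**Figure D4:**
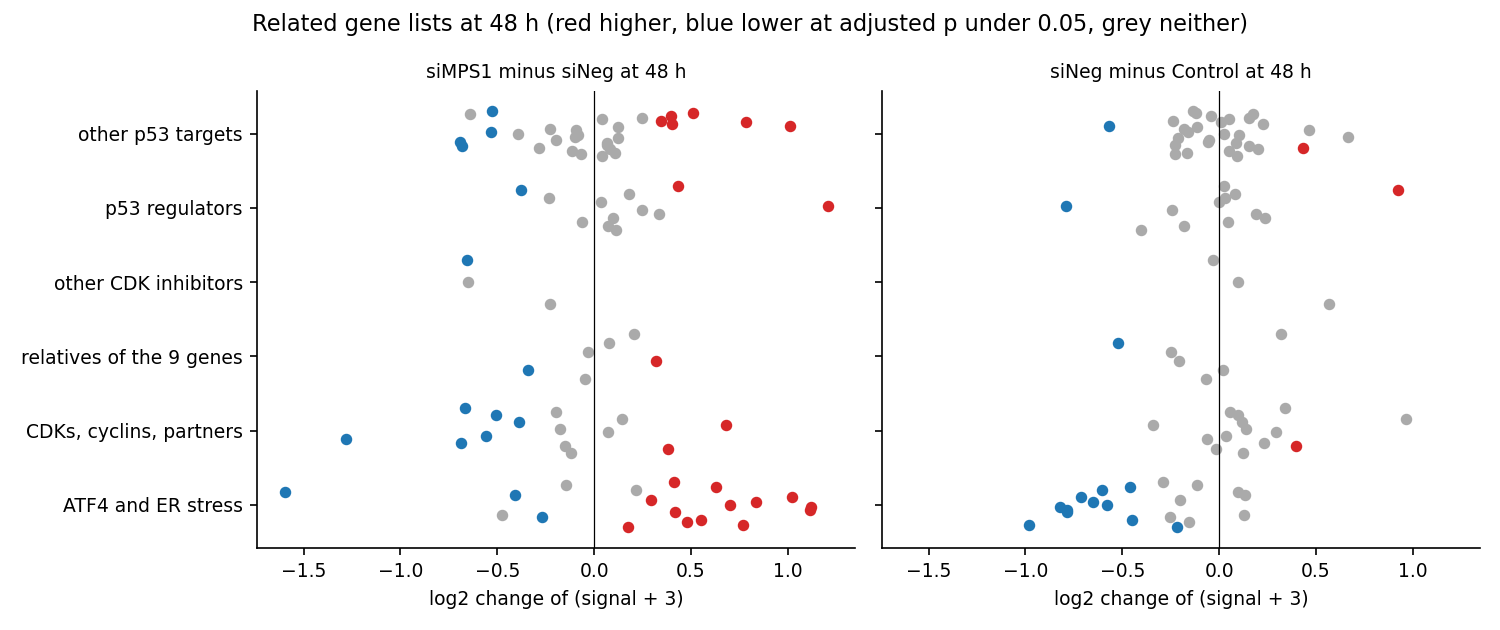
Log2 changes of (signal + 3) at 48 h (horizontal axes) for each tested gene of 6 lists (rows), for siMPS1 minus siNeg (left) and siNeg minus Control (right). Each point is 1 gene, red or blue where it was called higher or lower at an adjusted p under 0.05. In the ATF4 and endoplasmic reticulum stress list 13 genes are red on the left and 11 are blue on the right.

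Over the 9 group means, CDKN1A and TNFRSF10B were the members most alike, with a Pearson r of 0.92, and GADD45A and TNFRSF10B had 0.80, while CDKN1A and GDF15 had 0.14. These are descriptions over 9 points that share arms and times. Among the other 7615 genes, the pair most like CDKN1A was NOTCH2NLA (0.97) and ARHGEF4 (0.97), and the pair most like TNFRSF10B was UFM1 (0.97) and ANKRD28 (0.97). GDF15 was most like SEC63 (0.98) and DNAJC3 (0.97). For GADD45A they were HLA-F (0.98) and SNAPC1 (0.98), and for CDKN1B ARID1A (0.96) and CANX (0.96). The dim genes had SESN1 with MYLIP (0.91) and TMEM50A (0.90), and MDM2 with CDKL3 (0.95) and MRPL44 (0.86).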

How the data were processed

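The table was made from Affymetrix 3' expression arrays of 18 RNA samples, labelled with biotin from 250 ng of RNA each, per the labels. Per the submitters' processing notes the tool was MAS5, version not given, and the deposited values are taken to be log2 of its signals: raised to the power of 2, each array has nearly the same trimmed mean. That scale was inferred, as 9.38% of values lie below 0.

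Here the values were made linear, 3 was added and log2 taken. Probe sets naming exactly 1 gene were kept (19064 of 22277, with names from the platform annotation), the lowest 40% by mean were left out, and the brightest probe set stood for each gene, giving 7616 genes. A model of 9 group means over all 18 arrays was fitted with limma 3.58.1 in R 4.3.3 (9 residual degrees of freedom, intensity trend), with two-sided p-values adjusted by Benjamini-Hochberg within each comparison. The threshold for a call was 0.05. Every adjusted p in the text is from limma. The code was tested on simulated data. There were 12 planned comparisons and 6 over time added after the data were seen.

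Always named were the 9 members, TTK and other CDK inhibitors, then up to 4 genes of each list with the smallest p for siMPS1 minus siNeg at 48 h, and the 2 genes most like each tested member by Pearson r over 9 group means. Members and lists were chosen with earlier results of these data known. The alternatives changed the pseudocount, normalization, filter, probe set rule, trend, block and arrays used.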

Additional observations from a re-analysis of the deposited data

Results flagged for a closer look

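The response to siMPS1, its difference from siNeg, differed between 48 h and at least 1 earlier time for 4 of the 7 genes in the test of that difference. Against 6 h the log2 difference was 1.18 for CDKN1A (adjusted p = 6.04e-04, limma), 1.79 for GDF15 (adjusted p = 4.56e-08) and 0.64 for TNFRSF10B (adjusted p = 1.23e-04). Against 24 h it was 1.28 for CDKN1A (adjusted p = 3.57e-04), 1.92 for GDF15 (adjusted p = 1.16e-08), 0.46 for GADD45A (adjusted p = 0.0129) and 0.49 for TNFRSF10B (adjusted p = 0.00131). With the mean of probe sets TNFRSF10B lost both calls, at -0.052 (adjusted p = 0.818) and 0.094 (adjusted p = 0.684). GADD45A lost its call with no intensity trend (adjusted p = 0.0555) and without siNeg replicate 2 at 24 h (0.0586), siMPS1 replicate 2 at 24 h (0.0709) or siMPS1 replicate 2 at 48 h (0.0622). The ACTB 3' minus 5' value was also highest in siMPS1 at 48 h (0.90), and its part was not tested.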

How the results depend on the processing

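The 10 alternatives and the 18 fits that each left out 1 array kept the calls of CDKN1A and GDF15 for siMPS1 minus siNeg and minus Control at 48 h. With the mean of probe sets TNFRSF10B changed sign for siMPS1 minus Control at 48 h (-0.15) and for the difference in response between 48 and 6 h (-0.052). For siMPS1 minus siNeg at 48 h the 4 members called became 3 with median centring, no filter, the mean of probe sets or no intensity trend, and 3 to 4 with an array left out. For siMPS1 minus Control at 48 h the 3 became 2 with the mean of probe sets. Counts moved by over 1.5 times only in the cases that follow. Median centring gave 2 for siMPS1 minus Control at 6 h and 5 for Control from 6 to 24 h. For siMPS1 minus Control at 24 h, no filter, the replicate block and the compared groups alone each gave 0, and leaving out an array gave 0 to 1. For siMPS1 minus siNeg at 24 h leaving out an array gave 0 to 1. The cause was not tested.

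The replicate block moved no other member count. Over 36 pairs of groups, same-numbered arrays had correlated deviations from -0.148 to 0.108, so the numbers were not taken to pair arrays. The filter at 60% left out MDM2 and SESN1.

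Calls over all genes moved more. For siMPS1 minus siNeg 604 genes were called at 6 h, but 388 with no filter, 193 with no trend and 97 without siMPS1 replicate 2 at 6 h, and at 24 h 860, but 513 with the compared groups alone. For siMPS1 minus Control 1321 at 6 h became 2283 with median centring, and 996 at 24 h became 623 with the compared groups alone. For siNeg minus Control 318 at 6 h became 1169 with median centring, 76 at 24 h became 3 with no trend and 139 with median centring, and 1015 at 48 h became 444 without siNeg replicate 1 at 48 h. Lists were recomputed after the data were seen.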
